A study of Mus musculus with 9 samples.

Results

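The collagens were followed as a gene family in mouse pancreatic neuroendocrine tumors and normal islets. Members were the protein-coding genes whose symbol is Col, a number, the letter a and a number, which gave 44 of the 54347 genes listed. The rule used no measured value. RNA was sequenced from 9 libraries. M1, M2 and M3 came from tumors titled as Inulin tumors (spelled so in the labels), called functional in the study. M4, M5 and M6 came from the other, non-functional tumors. All 6 tumors arose in bi-transgenic INS-p25OE mice on a C57BL/6 background, which carry Ins2-rtTA and tetOp-p25GFP, so that doxycycline (1 mg/L in drinking water by the design text and 1 g/L in another source, from weaning at 3 to 4 weeks) turned on the Cdk5 activator p25 in insulin-expressing cells. NI1, NI2 and NI3 were normal beta islets of C57BL/6 mice. Their labels give neither genotype nor doxycycline, while the design text takes littermates that carry no transgene, kept in the same cages, as normal controls. M2 came from a female and the other 8 libraries from males. Age at collection was not given for these samples, nor were separate animals named for each islet library, so p-values measure the spread between these samples.

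Collagens are secreted proteins of 3 chains wound into a triple helix. Fibrillar collagens form the cables of connective tissue, and basement membrane collagens form the sheets that surround epithelia, vessels and islets. Network collagens form lattices, FACIT collagens sit on the surface of fibrils, beaded filament (type VI) collagens link cells to the surrounding matrix, and the remaining members are anchoring, transmembrane or little studied collagens. In the pancreas most fibrillar collagen is made by stellate cells and fibroblasts, and islet basement membrane by vascular cells. Gene coordinates are from GENCODE vM21 on GRCm38. Levels are given as CPM, counts per library size with TMM factors between libraries, and differences as log2 fold changes from edgeR's quasi-likelihood test, with p-values adjusted over all 15532 genes tested and a threshold of 0.05.

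Libraries held 36468280 to 63637175 counts. A gene with fewer than 3 counts is treated as undetected, which is 0.0424 to 0.119 CPM depending on the library. The library labelled NI1 went against its label. Cdk5r1, whose product is the source of p25, lay within the tumor range in NI1. It stood at 279 CPM in NI1, against 18.3 and 12.5 CPM in NI2 and NI3 and 149 to 400 CPM in the tumors. The libraries labelled M6 and NI1 were the closest of 36 pairs, over all tested genes and over the tested collagens alone. Their collagen distance was 1.06, against 2.84 for NI2 and NI3, in Euclidean units of log2(CPM + 1). The counts of M6 and NI1 were not identical, with a chi-square of 38.9 per degree of freedom. This was the lowest of the 36 pairs, followed by 126 for NI2 and NI3. Whether M6 and NI1 share a source was not tested. Insulin genes took 11.8% and 12.2% of counts in M6 and NI1, 24.8% and 26.0% in NI2 and NI3 and 1.47% to 8.83% in the other 5 tumors. Mitochondrial genes took 32.1% of counts in M4 and 1.76% to 8.41% elsewhere. The comparison of tumors with islets is therefore given with and without the libraries labelled NI1 and M6, a choice made after the data were seen, and the reason for their likeness was not tested.

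The promoter letters of 4 abundant members are shown because 2 of them, Col4a1 and Col4a2, are transcribed away from each other and their levels are compared as a ratio, while Col1a2 and Col3a1 are the fibrillar members with the highest levels that have a window. Windows come from RefSeq on GRCm38.p6 and run from 250 bases before to 50 bases after a start site annotated there. The Col1a2 window begins at 4505368, past the GENCODE start of that gene at 4504814. All its letters therefore lie inside the GENCODE gene and not upstream of it. A window was given for 35 of the 44 members, 38 windows in all. Capitals mark matches on either strand to 3 motifs. GGGCGG is the core of the element bound by Sp1 and is called a GC box. The letters CCAAT are those read by the factor NF-Y. Upstream of many genes TATAAA is where the TATA-binding protein sits. No matches overlapped in these windows. The windows are chr8:11312777-11313076 (minus strand), chr8:11312555-11312854 (plus strand), chr6:4505368-4505667 (plus strand) and chr1:45311288-45311587 (plus strand).
Col4a1: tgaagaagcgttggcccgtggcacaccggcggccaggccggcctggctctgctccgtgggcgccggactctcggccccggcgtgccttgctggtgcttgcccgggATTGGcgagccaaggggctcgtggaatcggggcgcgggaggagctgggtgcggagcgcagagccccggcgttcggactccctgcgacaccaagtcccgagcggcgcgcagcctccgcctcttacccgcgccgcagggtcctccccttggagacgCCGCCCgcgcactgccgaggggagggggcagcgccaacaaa
Col4a2: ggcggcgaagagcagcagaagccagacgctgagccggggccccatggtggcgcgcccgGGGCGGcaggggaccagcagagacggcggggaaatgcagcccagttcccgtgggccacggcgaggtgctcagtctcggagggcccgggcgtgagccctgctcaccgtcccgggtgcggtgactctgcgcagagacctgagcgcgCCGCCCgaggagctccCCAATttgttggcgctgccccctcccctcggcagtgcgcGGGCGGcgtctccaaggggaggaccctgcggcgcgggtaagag
Col1a2: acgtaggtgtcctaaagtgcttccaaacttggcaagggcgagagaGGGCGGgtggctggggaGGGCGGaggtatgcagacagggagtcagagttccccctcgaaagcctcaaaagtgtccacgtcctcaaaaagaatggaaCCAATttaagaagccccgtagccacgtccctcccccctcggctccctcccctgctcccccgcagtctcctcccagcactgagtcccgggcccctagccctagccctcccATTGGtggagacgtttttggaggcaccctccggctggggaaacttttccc
Col3a1: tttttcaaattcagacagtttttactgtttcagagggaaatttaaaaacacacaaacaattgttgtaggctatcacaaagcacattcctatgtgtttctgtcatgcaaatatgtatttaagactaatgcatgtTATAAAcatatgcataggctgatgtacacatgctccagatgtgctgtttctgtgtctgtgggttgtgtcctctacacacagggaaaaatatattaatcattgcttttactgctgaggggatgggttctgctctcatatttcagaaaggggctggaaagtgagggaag

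The Col4a1 and Col4a2 windows shared 78 bases, and the annotated start sites lay 21 bases apart. Each start lay inside the other gene, so the genes overlap at their starts and no gap lies between them. The GC box letters were found in 60.5% of the 38 collagen windows and in 35.7% of all 32851 windows. CCAAT was found in 34.2% of collagen windows against 37.4% of all windows, and TATAAA in 13.2% against 13.6%. Col3a1 held a TATAAA match and no GC box, whereas Col4a1, Col4a2 and Col1a2 held GC boxes and no TATAAA match. Other members also lie side by side in the genome. Col4a3 and Col4a4 on chromosome 1 and Col4a5 and Col4a6 on the X chromosome are pairs read in opposite directions, Col3a1 and Col5a2 are neighbours on chromosome 1, Col6a1 and Col6a2 on chromosome 10, and Col6a4, Col6a5 and Col6a6 on chromosome 9.

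Of the 44 members, 32 passed the minimum of 1 CPM in at least 3 libraries and were tested. The other 12 were Col2a1, Col24a1, Col4a6, Col9a1, Col9a3, Col19a1, Col22a1, Col6a4, Col6a5, Col17a1, Col23a1 and Col26a1, none above 3.64 CPM in any library. Per kilobase of merged exons, the highest mean level was that of Col4a1, the main basement membrane chain, in tumors (88.7 CPM per kb) and in islets (41.8 CPM per kb). Its partner Col4a2 came next in both, at 65.0 and 32.3 CPM per kb. The third place differed. In tumors it was held by Col1a1 (47.8 CPM per kb), followed by Col15a1 (23.7), Col3a1 (22.3) and Col1a2 (21.9), and in islets by Col15a1 (9.85 CPM per kb), followed by Col6a6 (7.28) and Col13a1 (5.54), with Col1a1 at 3.52. The tumor levels of Col15a1, Col3a1 and Col1a2 lay within 1 SD of each other. Their order also depends on the length used. Merged exons span 6349, 9816 and 12426 bases in these genes, and the longest coding sequences 4101, 4392 and 4116 bases. The same holds in islets for Col6a6 (9166 and 6795 bases) and Col13a1 (4605 and 2217 bases).

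**Figure D1:**
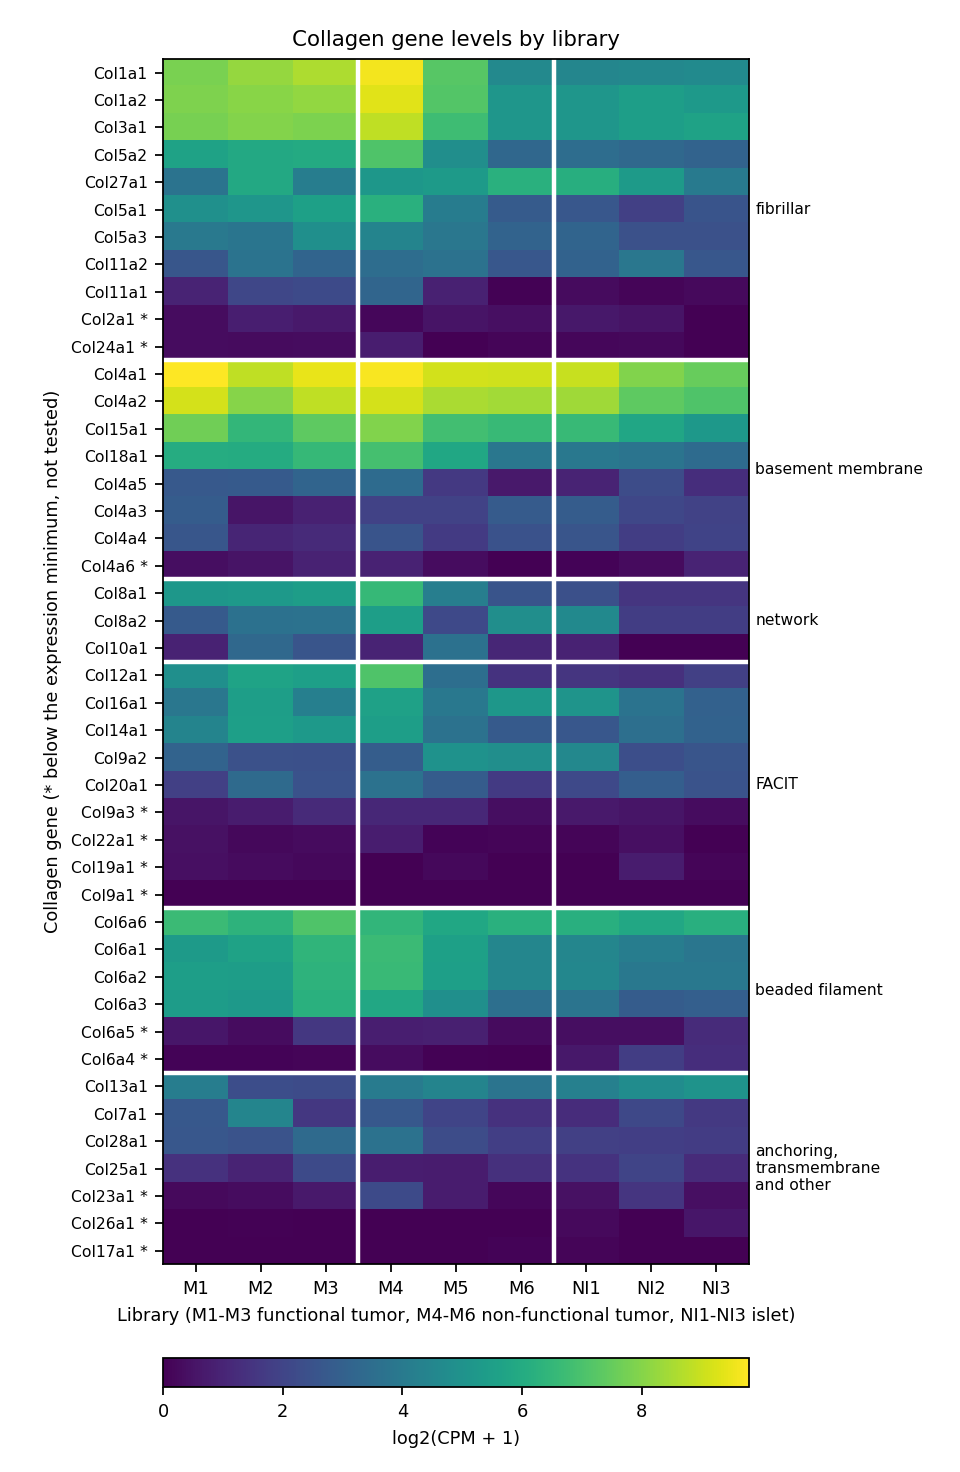
Level of each of the 44 collagen genes, as log2(CPM + 1) in color, in each of the 9 libraries. Rows are grouped by class and ordered by mean level, and an asterisk marks the 12 genes that were not tested. Col1a1, Col1a2 and Col3a1 are bright in M1 to M5 and dark in M6 and NI1 to NI3.

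The sum of all 44 members was taken first as the size of the collagen program. It was 2910.1, 2333, 3066 CPM in M1 to M3, 4749, 1935, 1449 CPM in M4 to M6 and 1409.8, 845, 700.5 CPM in NI1 to NI3. The tumor mean was 2740.3 ± 1153 CPM (SD, n = 6) and the islet mean 985 ± 375 CPM (SD, n = 3), a ratio of 2.78. All 6 tumor sums lay above all 3 islet sums, with the library labelled M6 only just above the library labelled NI1. The ratio was 3.55 without NI1, 3.04 without M6 and 3.88 without both. M4, the library with the most mitochondrial counts, held the highest sum, and the ratio without it was 2.37. No p is given for a sum over chosen genes.

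The classes differed in the size of the ratio. Fibrillar collagens summed to 797, 1006, 1071 CPM in M1 to M3, 2196, 515, 194 CPM in M4 to M6 and 191, 179.7, 150.0 CPM in NI1 to NI3. Their ratio of tumor to islet means was 5.55, and all 6 tumors stood above all islets, M6 by under 3 CPM. Basement membrane collagens summed to 1742, 874, 1428 CPM in M1 to M3, 1787, 1109, 1003 CPM in M4 to M6 and 970.0, 489, 372 CPM in NI1 to NI3, a ratio of 2.17, with M2 below NI1. The ratio was 2.18 for beaded filament collagens, 2.80 for FACIT collagens and 4.84 for network collagens, and the last became 14.2 without NI1. For anchoring, transmembrane and other members it was 0.819. The fibrillar class thus took 26.6% to 46.2% of all collagen counts in M1 to M5, against 13.4% in M6, 13.6% in NI1, 21.3% in NI2 and 21.4% in NI3. Basement membrane collagens took 37.5% to 59.9% in M1 to M5, 69.2% in M6, 68.8% in NI1, 57.9% in NI2 and 53.1% in NI3.

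**Figure D2:**
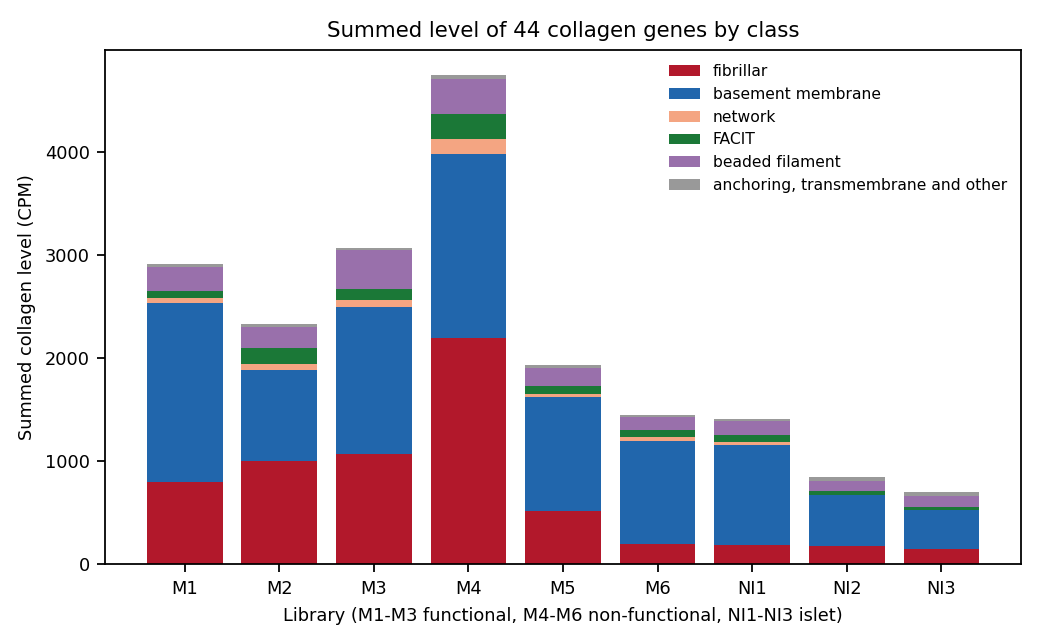
Summed CPM of the 44 collagen genes in each library, stacked by class. M4 is highest at 4749 CPM, and the fibrillar part is large in M1 to M5 and small in M6 and the 3 islet libraries.

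Whether single collagens differed between tumors and islets was asked with all 6 tumors against all 3 islet libraries. No collagen passed the threshold in either direction. Over all genes 0% were called higher and 0.258% lower (40 genes, none of them a collagen). Among the 32 collagens 26 had a log2 fold change above 0 and 6 below, with a median of 1.43, against a median of 0.03 and 52.5% above 0 over all genes. The smallest adjusted p among them was 0.126, of Col8a1. Without adjustment, 19 collagens were higher and 0 lower at p under 0.05, where 10.7% and 9.14% of all genes were. DESeq2 on the same counts called 17 collagens higher and 0 lower (4.96% and 3.17% of all genes). Groups did not overlap for 4 collagens, Col5a1, Col6a1, Col8a1 and Col10a1, all higher in tumors, where 4.5% of all genes did not overlap in that direction. Scaling by total counts alone moved the median of all genes from 0.03 to 0.24, and 26 of 32 collagens stood above the median of all genes under the main scaling, DESeq2 size factors, total counts and scaling without mitochondrial genes. In bulk RNA, more cells that make collagen and more collagen RNA per cell cannot be told apart.

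Without the library labelled NI1, 8 collagens rose, where 5.34% of all genes did. These were Col4a1, Col4a2, Col15a1, Col18a1, Col5a3, Col6a3, Col8a1 and Col10a1. Without the library labelled M6, 11 rose, where 0.522% of all genes did, namely Col1a1, Col1a2, Col3a1, Col5a1, Col5a2, Col18a1, Col6a1, Col6a2, Col6a3, Col8a1 and Col12a1. Without both, which leaves 5 tumors and 2 islet libraries, 17 of 32 rose (53.1%, where 5.75% of all genes did), which were all of these and Col11a1. M6 held the lowest collagen sum of the tumors and NI1 the highest of the islets. Leaving both out therefore widens the difference in that sum by construction, and the calls without them are no independent test. None fell in the 3 fits, where 3.17%, 0.876% and 3.59% of all genes did. Groups did not overlap for 21 collagens higher and 1 lower without both, where 19% and 18.6% of all genes did not. The median log2 fold change without both was 2.96 for fibrillar, 1.57 for basement membrane, 4.62 for network, 1.49 for FACIT, 2.10 for beaded filament and 0.46 for the remaining members.

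**Figure D3:**
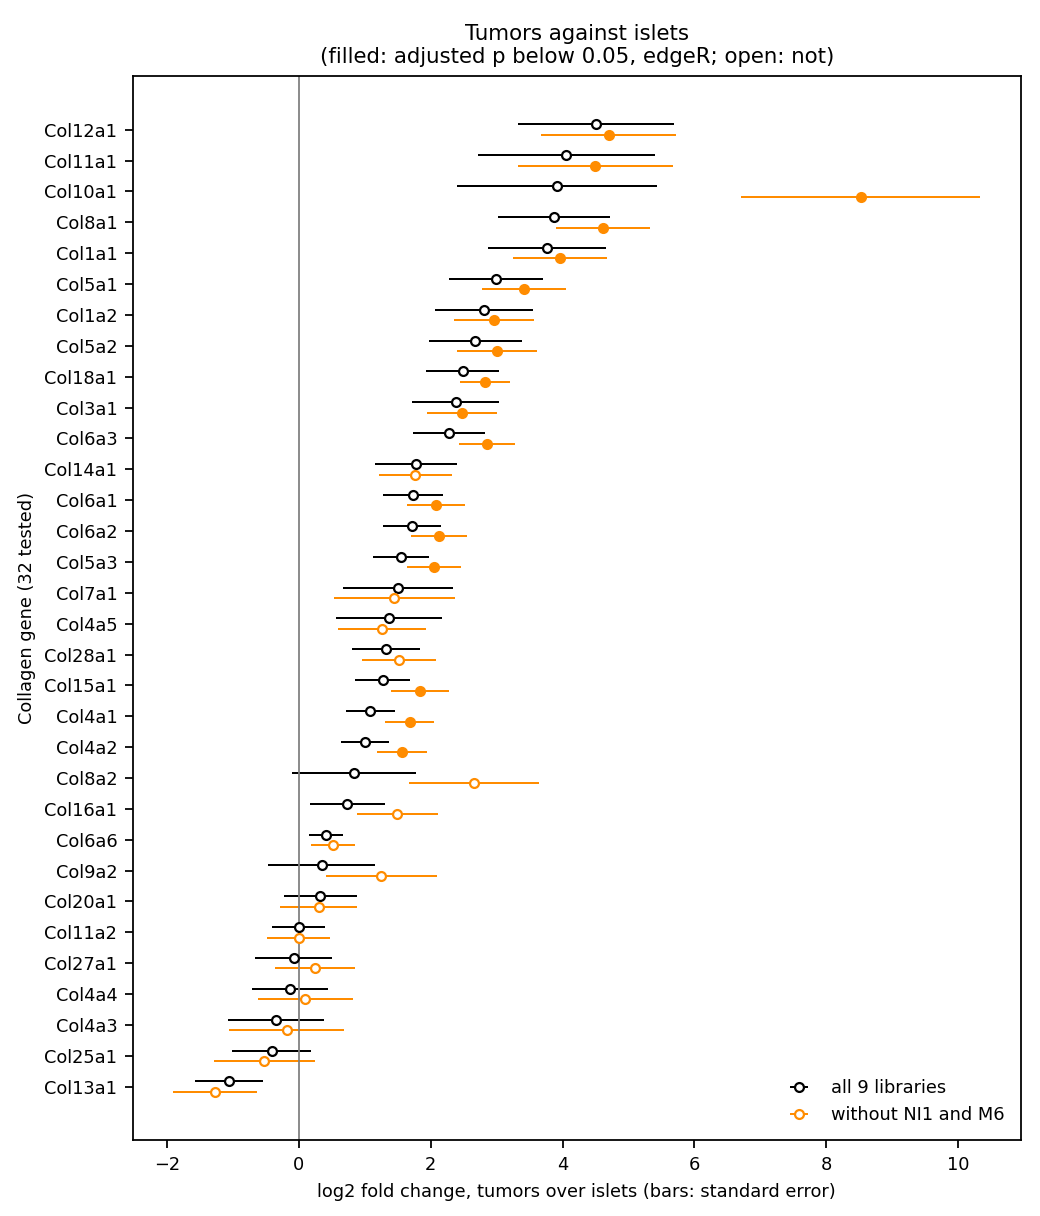
Log2 fold change in tumors over islets for the 32 tested collagens, with its standard error as a bar, in all 9 libraries (black) and without the libraries labelled NI1 and M6 (orange). Filled points have an adjusted p below 0.05. All black points are open and 17 orange points are filled.

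Of the 11 fibrillar members 9 were tested, 7 with a log2 fold change above 0 and a class median of 2.68. Col1a1 and Col1a2 encode the chains of type I collagen, the main collagen of scar and stroma. Col1a1 (ENSMUSG00000001506, chr11:94936224-94953042, plus strand) was at 228, 305, 381 CPM in M1 to M3, 792, 151, 23.7 CPM in M4 to M6 and 21.4, 23.0, 24.8 CPM in NI1 to NI3. M1 to M5 stood above every islet library, and M6 lay within the islet range. Its mean was 313 ± 265 CPM (SD, n = 6) in tumors and 23.1 ± 1.70 CPM (SD, n = 3) in islets, and its log2 fold change was 3.76 (SE 0.90, edgeR adjusted p = 0.139), and 3.96 (SE 0.71, edgeR adjusted p = 0.0146) without NI1 and M6. Col1a2 (ENSMUSG00000029661, chr6:4504814-4541544, plus strand) was at 236, 266, 291 CPM in M1 to M3, 657, 145, 34.4 CPM in M4 to M6 and 34.1, 43.4, 38.7 CPM in NI1 to NI3. It followed the same order of libraries, M4 highest and M5 lowest among M1 to M5, with M6 again within the islet range. Tumors over islets gave a log2 fold change of 2.81 (SE 0.74, edgeR adjusted p = 0.148), and 2.96 (SE 0.60, edgeR adjusted p = 0.0211) without NI1 and M6. Col3a1 (ENSMUSG00000026043, chr1:45311538-45349706, plus strand), whose product forms thin fibrils with type I collagen, was at 221, 253, 232 CPM in M1 to M3, 465, 108, 34.2 CPM in M4 to M6 and 34.0, 43.5, 48.7 CPM in NI1 to NI3. Here too M1 to M5 stood above all islets and M6 did not. On the log2 scale the fold change was 2.38 (SE 0.66, edgeR adjusted p = 0.152), and 2.47 (SE 0.53, edgeR adjusted p = 0.0253) without NI1 and M6.

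The other fibrillar members named here were chosen after their values were seen. Col5a1 and Col5a2 encode type V collagen, which sets the width of type I fibrils. Col5a1 was at 29.0, 34.0, 46.7 CPM in M1 to M3, 72.8, 16.5, 6.04 CPM in M4 to M6 and 5.39, 2.58, 4.87 CPM in NI1 to NI3, and all tumors stood above all islets, M6 by a small margin. Col5a2 was at 49.3, 58.8, 63.1 CPM in M1 to M3, 136, 27.6, 8.61 CPM in M4 to M6 and 10.2, 8.79, 7.79 CPM in NI1 to NI3, with M6 within the islet range. Their log2 fold changes were 2.99 (adjusted p = 0.139) and 2.68 (adjusted p = 0.148), and both rose without NI1 and M6. Col11a1, a minor chain of cartilage fibrils, reached 8.23 CPM in M4 and 0.883 to 3.65 CPM in the other tumors but M6, where it lay below the limit of detection, and was 0.0974 to 0.205 CPM in islets. Not every fibrillar chain behaved so. Col27a1, an early cartilage fibril collagen, was at 12.3, 58.9, 16.5 CPM in M1 to M3, 35.0, 39.9, 73.7 CPM in M4 to M6 and 69.9, 39.5, 15.4 CPM in NI1 to NI3, and M6 and NI1 held the highest values. Its log2 fold change was -0.08 (SE 0.59, edgeR adjusted p = 0.956), and turned to 0.52 (adjusted p = 0.658) without NI1 and 0.24 (adjusted p = 0.835) without both libraries. Col11a2 was at 5.23 to 12.3 CPM in tumors and 5.27 to 13.8 CPM in islets, with full overlap, and its log2 fold change was -0.0018 with all libraries, 0.11 without M6 and -0.0047 without NI1 and M6.

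**Figure D4:**
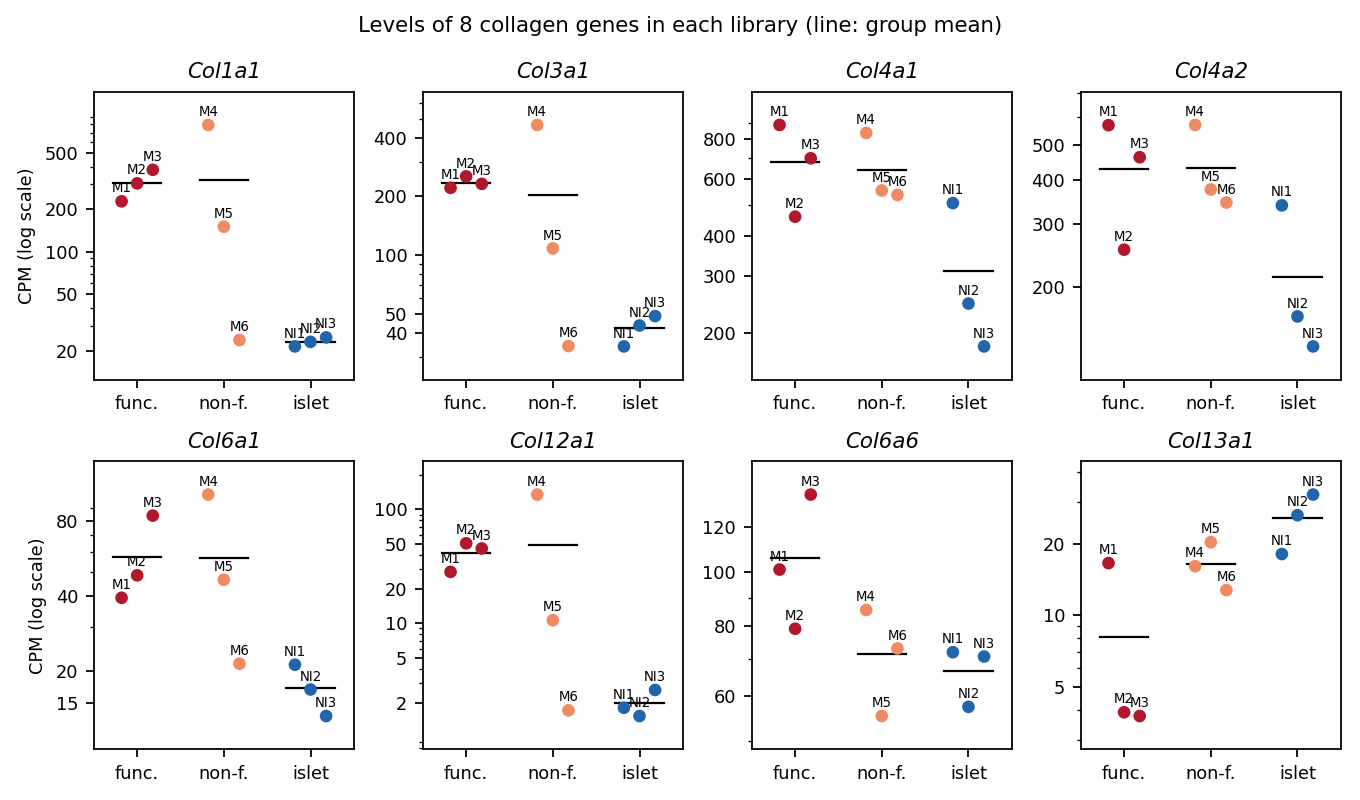
CPM on log axes of 8 collagen genes in each library, in functional (func.) tumors, non-functional (non-f.) tumors and islets, with a line at each group mean. Col1a1, Col3a1, Col12a1 and Col6a1 are high in M1 to M5 and near the islet level in M6, Col4a1 and Col4a2 are high in NI1, Col6a6 differs little, and Col13a1 is lowest in M2 and M3.

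Basement membrane collagens had the highest mean sum of the classes in islets (611 CPM) and in tumors (1324 CPM, against 963 CPM for fibrillar), and differed less. The fibrillar sum exceeded theirs only in M2 and M4. Of 8 members 7 were tested, 5 with a log2 fold change above 0 and a class median of 1.09. Col4a1 and Col4a2 encode the chains found in nearly all basement membranes. Col4a1 (ENSMUSG00000031502, chr8:11198423-11312826, minus strand) was at 886, 459.8, 698 CPM in M1 to M3, 837, 555, 537 CPM in M4 to M6 and 507, 247, 182 CPM in NI1 to NI3. All 6 tumors stood above NI2 and NI3, and M2 alone stood below the library labelled NI1. Its mean was 662 ± 173 CPM (SD, n = 6) in tumors and 312 ± 172 CPM (SD, n = 3) in islets, with a log2 fold change of 1.09 (SE 0.37, edgeR adjusted p = 0.17), and 1.68 (SE 0.37, edgeR adjusted p = 0.0275) without NI1 and M6. Col4a2 (ENSMUSG00000031503, chr8:11312805-11449287, plus strand) was at 570.0, 255, 463 CPM in M1 to M3, 571, 376, 346 CPM in M4 to M6 and 339, 166, 136 CPM in NI1 to NI3. Its libraries fell in nearly the same order. Its log2 fold change came to 1.01 (SE 0.36, edgeR adjusted p = 0.187), and 1.57 (SE 0.38, edgeR adjusted p = 0.0378) without NI1 and M6. Col15a1 (ENSMUSG00000028339, chr4:47208161-47313167, plus strand), which links basement membrane to the fibrils beneath, was at 203, 87.6, 162 CPM in M1 to M3, 243, 114, 95.0 CPM in M4 to M6 and 97.1, 54.3, 36.1 CPM in NI1 to NI3. M2 and M6 lay below NI1 and above NI2 and NI3. The log2 fold change was 1.27 (SE 0.42, edgeR adjusted p = 0.168), and 1.84 (SE 0.44, edgeR adjusted p = 0.0354) without NI1 and M6. Col18a1, its relative and the source of endostatin, was chosen after its values were seen. It was at 65.4, 64.3, 93.6 CPM in M1 to M3, 119, 56.4, 13.7 CPM in M4 to M6 and 14.3, 12.7, 9.80 CPM in NI1 to NI3, so that M1 to M5 stood well above all islets and M6 did not. Tumors over islets gave a log2 fold change of 2.48 (SE 0.56, edgeR adjusted p = 0.132), and 2.82 (SE 0.38, edgeR adjusted p = 0.00582) without NI1 and M6. Col4a3, Col4a4 and Col4a5, chains of the kidney filter's basement membrane, were under 10 CPM in all libraries. Col4a3 had a log2 fold change of -0.35 (SE 0.73, edgeR adjusted p = 0.828), Col4a4 of -0.13 (SE 0.58, edgeR adjusted p = 0.924) and Col4a5 of 1.36 (SE 0.80, edgeR adjusted p = 0.366), and for each the groups overlapped. Without NI1 and M6 the values were -0.18, 0.10 and 1.26, none past the threshold, and without NI1 alone Col4a3 turned to 0.10 and Col4a4 to 0.23.

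The 3 network members were all tested. Col8a1 (ENSMUSG00000068196, chr16:57624258-57754737, minus strand), a short-chain collagen of vessel walls, was at 35.7, 37.7, 42.9 CPM in M1 to M3, 94.4, 17.1, 4.83 CPM in M4 to M6 and 4.19, 1.85, 1.86 CPM in NI1 to NI3. All 6 tumors stood above all 3 islet libraries, M6 only just. Its mean was 38.8 ± 30.8 CPM (SD, n = 6) in tumors and 2.63 ± 1.35 CPM (SD, n = 3) in islets, and its log2 fold change was 3.87 (SE 0.85, edgeR adjusted p = 0.126), and 4.62 (SE 0.71, edgeR adjusted p = 0.00933) without NI1 and M6. Col8a2 (ENSMUSG00000056174, chr4:126286793-126314330, plus strand), the other type VIII chain, was at 5.89, 11.5, 11.8 CPM in M1 to M3, 43.4, 3.43, 27.4 CPM in M4 to M6 and 24.1, 2.44, 2.40 CPM in NI1 to NI3. Only the libraries labelled M6 and NI1 and M4 exceeded 20 CPM. On the log2 scale the fold change was 0.84 (SE 0.94, edgeR adjusted p = 0.647), and 2.65 (SE 0.99, edgeR adjusted p = 0.126) without NI1 and M6. Col10a1 (ENSMUSG00000039462, chr10:34389981-34397085, plus strand), a collagen of growth plate cartilage, was at 0.905, 9.03, 5.04 CPM in M1 to M3, 0.949, 11.6, 1.07 CPM in M4 to M6 and 0.890, 0, 0.0247 CPM in NI1 to NI3. It was not detected in NI2 and lay below the limit of detection in NI3 (0.0731 and 0.0742 CPM), and M2, M3 and M5 exceeded the other libraries. With all libraries the log2 fold change was 3.92 (SE 1.52, edgeR adjusted p = 0.206). Without NI1 and M6 the gene was called higher (adjusted p = 0.0245), but the fitted fold then depends on the prior count and is no bound.

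Of 9 FACIT members 5 were tested, all with a log2 fold change above 0, and the class median was 0.73. Col12a1 (ENSMUSG00000032332, chr9:79598991-79718831, minus strand), which decorates type I fibrils, had the highest log2 fold change of the 32. It was at 28.3, 50.3, 45.3 CPM in M1 to M3, 135, 10.6, 1.72 CPM in M4 to M6 and 1.81, 1.53, 2.60 CPM in NI1 to NI3. The order was M4, M2, M3, M1 and M5, with M6 within the islet range. Its mean was 45.2 ± 47.8 CPM (SD, n = 6) in tumors and 1.98 ± 0.551 CPM (SD, n = 3) in islets, with a log2 fold change of 4.51 (SE 1.18, edgeR adjusted p = 0.148), and 4.70 (SE 1.03, edgeR adjusted p = 0.0263) without NI1 and M6. It was 3.78 without M4, the library with the most mitochondrial counts. Col14a1 (ENSMUSG00000022371, chr15:55307750-55520803, plus strand), a fibril-bound collagen of dense connective tissue, was at 20.1, 45.2, 37.1 CPM in M1 to M3, 43.6, 11.8, 5.90 CPM in M4 to M6 and 5.36, 11.1, 7.50 CPM in NI1 to NI3. M1 to M5 stood above all islets, M5 closely, and M6 did not. Its log2 fold change came to 1.78 (SE 0.63, edgeR adjusted p = 0.182), and 1.77 (SE 0.55, edgeR adjusted p = 0.0793) without NI1 and M6. Col16a1 (ENSMUSG00000040690, chr4:130047840-130099283, plus strand) was at 13.6, 44.4, 17.7 CPM in M1 to M3, 47.0, 14.2, 35.7 CPM in M4 to M6 and 32.4, 12.3, 7.15 CPM in NI1 to NI3. M2, M4 and M6 stood above NI1. The log2 fold change was 0.73 (SE 0.57, edgeR adjusted p = 0.492), and 1.49 (SE 0.62, edgeR adjusted p = 0.159) without NI1 and M6. The other tested members, Col9a2 and Col20a1, overlapped between the groups, with 0.34 (adjusted p = 0.847) and 0.32 (adjusted p = 0.778), and with 1.25 and 0.30 without NI1 and M6, neither past the threshold.

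Of 6 beaded filament members 4 were tested, all above 0 with a class median of 1.72. Col6a1, Col6a2 and Col6a3 encode the chains of the usual type VI filament. Col6a1 (ENSMUSG00000001119, chr10:76708792-76726168, minus strand) was at 39.4, 48.4, 83.9 CPM in M1 to M3, 102, 46.5, 21.5 CPM in M4 to M6 and 21.3, 16.9, 13.3 CPM in NI1 to NI3. All tumors stood above all islets, M6 by a margin of under 1 CPM. Its mean was 56.9 ± 30.0 CPM (SD, n = 6) in tumors and 17.2 ± 4.01 CPM (SD, n = 3) in islets, with a log2 fold change of 1.73 (SE 0.46, edgeR adjusted p = 0.148), and 2.08 (SE 0.44, edgeR adjusted p = 0.0239) without NI1 and M6. Col6a2 (ENSMUSG00000020241, chr10:76595762-76623630, minus strand) was at 43.6, 42.8, 79.6 CPM in M1 to M3, 98.0, 44.8, 21.6 CPM in M4 to M6 and 21.9, 14.0, 14.3 CPM in NI1 to NI3. It tracked Col6a1 library by library. Tumors over islets gave a log2 fold change of 1.72 (SE 0.45, edgeR adjusted p = 0.148), and 2.12 (SE 0.42, edgeR adjusted p = 0.0195) without NI1 and M6. Col6a3, chosen after its values were seen, was at 41.4, 37.7, 73.5 CPM in M1 to M3, 56.8, 28.2, 11.0 CPM in M4 to M6 and 12.5, 6.21, 6.88 CPM in NI1 to NI3, so that M1 to M5 stood above all islets and M6 did not. Its log2 fold change was 2.28 (SE 0.54, edgeR adjusted p = 0.139), and 2.86 (SE 0.42, edgeR adjusted p = 0.00829) without NI1 and M6. Col6a6 (ENSMUSG00000043719, chr9:105687809-105828160, minus strand), an alternative to Col6a3 in the filament, was the most even of the named members, at 101, 79.2, 137 CPM in M1 to M3, 85.5, 55.4, 73.1 CPM in M4 to M6 and 71.9, 57.5, 70.7 CPM in NI1 to NI3. Tumors and islets overlapped at M5. On the log2 scale the fold change was 0.41 (SE 0.26, edgeR adjusted p = 0.403), and 0.52 (SE 0.33, edgeR adjusted p = 0.356) without NI1 and M6. Without both libraries Col6a1, Col6a2 and Col6a3 rose while Col6a6 did not pass the test, and the difference between them was not tested.

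In the last class 4 of 7 members were tested, 2 above 0 and 2 below. Col13a1 (ENSMUSG00000058806, chr10:61838236-61979108, minus strand), a transmembrane collagen of cell contacts, had the lowest log2 fold change of the 32. It was at 16.5, 3.91, 3.77 CPM in M1 to M3, 16.1, 20.3, 12.7 CPM in M4 to M6 and 18.1, 26.3, 32.1 CPM in NI1 to NI3. M2 and M3 held the lowest levels, NI2 and NI3 the highest, and M5 lay above NI1. Its log2 fold change came to -1.06 (SE 0.51, edgeR adjusted p = 0.281), and -1.27 (SE 0.63, edgeR adjusted p = 0.234) without NI1 and M6. Col7a1 (ENSMUSG00000025650, chr9:108953586-108984875, plus strand), the anchoring fibril collagen of skin, was at 5.45, 21.2, 1.98 CPM in M1 to M3, 5.46, 3.02, 1.63 CPM in M4 to M6 and 1.39, 3.34, 2.10 CPM in NI1 to NI3. A single library, M2, stood far above the rest. The log2 fold change was 1.51 (SE 0.83, edgeR adjusted p = 0.34), and 1.45 (SE 0.92, edgeR adjusted p = 0.348) without NI1 and M6. It was 0.62 without M2. Col28a1 (ENSMUSG00000068794, chr6:7997808-8192617, minus strand), found around nerve fibres, was at 5.31, 4.68, 9.44 CPM in M1 to M3, 11.8, 3.85, 2.49 CPM in M4 to M6 and 2.62, 2.56, 2.33 CPM in NI1 to NI3. M1 to M5 stood above all islets and M6 lay within their range. Tumors over islets gave a log2 fold change of 1.32 (SE 0.51, edgeR adjusted p = 0.205), and 1.52 (SE 0.56, edgeR adjusted p = 0.123) without NI1 and M6. Col25a1, a brain collagen found in amyloid plaques, was at 0.662 to 3.57 CPM in tumors and 1.29 to 3.04 CPM in islets, with a log2 fold change of -0.41 (SE 0.60, edgeR adjusted p = 0.733), and -0.52 (adjusted p = 0.703) without NI1 and M6. Among the members not tested, Col6a4 was chosen after its values were seen because it ran the other way, at 0 to 0.237 CPM in tumors and 0.530 to 2.41 CPM in islets. M6 was at 0, which with 3 counts as the limit allows up to 0.0527 CPM.

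Ratios of chains within a library do not depend on scaling between libraries. The smallest p that 6 tumors and 3 islet libraries allow is 0.0238, and p-values were adjusted over 6 ratios. The count of Col1a1 over that of Col1a2 was 0.966, 1.15, 1.31 in M1 to M3, 1.21, 1.04, 0.691 in M4 to M6 and 0.627, 0.530, 0.640 in NI1 to NI3. All 6 tumors stood above all 3 islet libraries, and M6 was the tumor nearest to them. The difference was 0.80 on the log2 scale (exact two-sided permutation test, p = 0.0238, adjusted p = 0.0714). Col3a1 over Col1a1 was 0.970, 0.829, 0.608 in M1 to M3, 0.587, 0.718, 1.44 in M4 to M6 and 1.59, 1.89, 1.96 in NI1 to NI3. All tumors stood below all islets, so that Col1a1 made up more of the RNA counts of the pair in tumors. The difference was -1.15 on the log2 scale (exact two-sided permutation test, p = 0.0238, adjusted p = 0.0714), and neither ratio passed the threshold after adjustment. For the divergent pair, Col4a1 over Col4a2 was 1.55, 1.80, 1.51 in M1 to M3, 1.47, 1.47, 1.55 in M4 to M6 and 1.49, 1.49, 1.33 in NI1 to NI3. It varied by little over all 9 libraries apart from M2. The difference was 0.12 on the log2 scale (exact two-sided permutation test, p = 0.190, adjusted p = 0.229). Col6a1 over Col6a2 stayed between 0.903 and 1.21 with a difference of -0.01 on the log2 scale (exact two-sided permutation test, p = 0.881, adjusted p = 0.881). Col5a1 over Col5a2 differed by 0.43 on the log2 scale (exact two-sided permutation test, p = 0.190, adjusted p = 0.229). Col15a1 over Col18a1 was 3.11, 1.36, 1.73 in M1 to M3, 2.05, 2.02, 6.93 in M4 to M6 and 6.78, 4.28, 3.69 in NI1 to NI3. M6 and NI1 shared the highest values, and M1 to M5 lay below NI2 and NI3. The difference was -0.96 on the log2 scale (exact two-sided permutation test, p = 0.119, adjusted p = 0.229). Without NI1 and M6 the differences were 0.95 for Col1a1/Col1a2, -1.40 for Col3a1/Col1a1, 0.50 for Col5a1/Col5a2, 0.14 for Col4a1/Col4a2, -0.04 for Col6a1/Col6a2 and -1.01 for Col15a1/Col18a1. The permutation test over 5 tumors and 2 islet libraries cannot go below the threshold of 0.05, so no p is given for these.

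**Figure D5:**
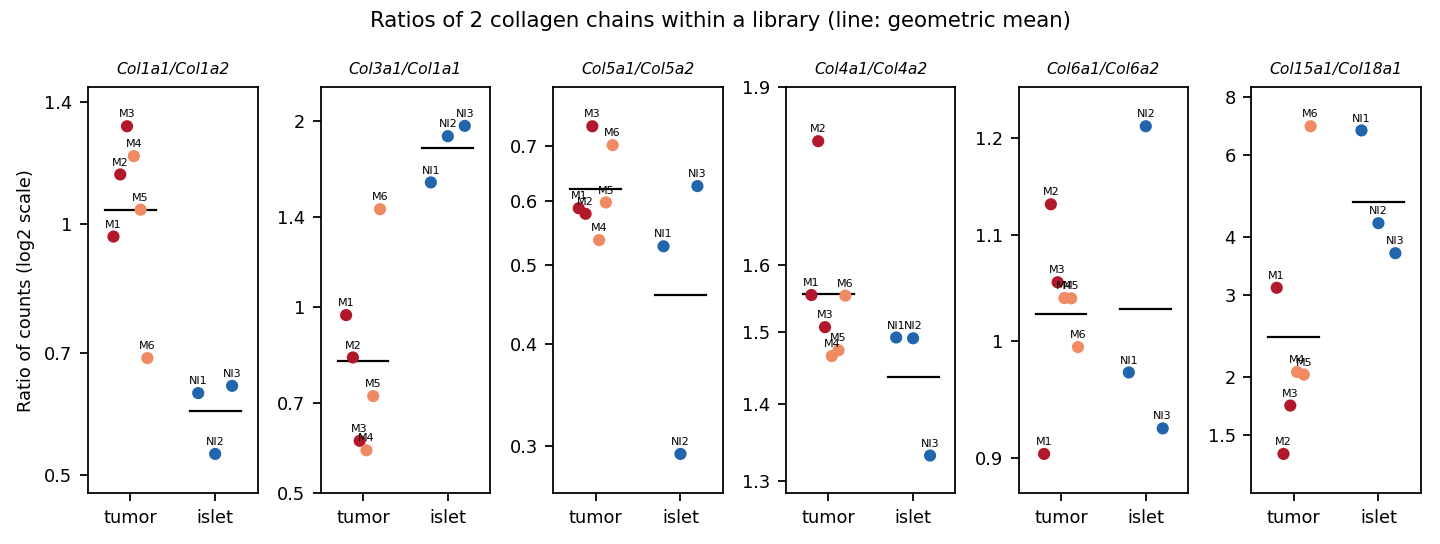
Ratio of the counts of 2 collagen chains in each library, on log2 axes, for 6 tumors and 3 islet libraries, with a line at the geometric mean. Col1a1/Col1a2 is higher and Col3a1/Col1a1 lower in every tumor than in every islet library, and Col15a1/Col18a1 is highest in M6 and NI1.

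The 3 functional tumors were also set against the 3 non-functional ones. No collagen passed the threshold, and over all genes 0% were called in either direction. DESeq2 also called 0 of the 31 collagens to which it gave an adjusted p, with 0.143% of all genes higher and 0.577% lower. Without adjustment, 1 collagen was higher and 1 lower at p under 0.05, where 4.71% and 5.58% of all genes were. Groups overlapped for all 32, where 8.77% and 6.24% of all genes did not overlap. Of the 32 members 17 had a log2 fold change above 0, but 13 with DESeq2 size factors and 26 with total counts, and 7 without M6, so no direction can be given for the family. The member that was lower was Col9a2, a cartilage FACIT chain chosen after its values were seen. It was at 7.74, 4.37, 4.23 CPM in M1 to M3, 6.49, 31.0, 27.3 CPM in M4 to M6 and 22.9, 4.07, 4.97 CPM in NI1 to NI3. M5 and M6 held high values, M4 lay among the functional tumors, and the log2 fold change was -1.99 (SE 0.77, edgeR adjusted p = 0.459), unadjusted p = 0.0285. The member that was higher was Col6a6, at the levels given above, with 0.57 (SE 0.25, edgeR adjusted p = 0.48) and an unadjusted p of 0.0456. Among the abundant chains, Col1a1 was at 305 ± 76.7 CPM in functional and 322 ± 412 CPM in non-functional tumors (SD, n = 3 each). M4 was the highest and M6 the lowest of all 6. Col4a1 was at 681 ± 214 and 643 ± 168 CPM. Their log2 fold changes were -0.08 (SE 0.89, edgeR adjusted p = 0.985) and 0.08 (SE 0.42, edgeR adjusted p = 0.958). Col1a1 thus spread more among the non-functional tumors and Col4a1 more among the functional ones, and these differences in spread were not tested.

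Collagen chains are folded, cut, crosslinked, bound and broken down by other proteins, and none of these partner genes passed the threshold with all 9 libraries. Over all genes 52.5% had a log2 fold change above 0 with all libraries. Without NI1 and M6, 5.75% of all genes rose and 3.59% fell. That fit was chosen after the data were seen, so calls of partners and markers in it are no independent test either. Of the folding and modification enzymes, 9 of 19 tested genes had a log2 fold change above 0, with a median of -0.05. The lowest were P3h2, which hydroxylates proline in basement membrane collagen, and P4ha1, a subunit of the main prolyl hydroxylase. P3h2 was at 5.79, 1.96, 2.76 CPM in M1 to M3, 5.66, 3.24, 4.76 CPM in M4 to M6 and 7.12, 24.7, 31.4 CPM in NI1 to NI3, with a log2 fold change of -2.39 (SE 0.47, edgeR adjusted p = 0.0868). P4ha1 was at 33.3, 48.3, 40.6 CPM in M1 to M3, 29.6, 31.7, 42.9 CPM in M4 to M6 and 43.7, 89.4, 94.2 CPM in NI1 to NI3, with -1.01 (SE 0.25, edgeR adjusted p = 0.148). Both stood highest in NI2 and NI3 and fell without NI1 and M6 (adjusted p = 0.00863 and 0.0129). The highest were P4ha3, under 5 CPM in all libraries, and the chaperone Fkbp10, which rose without NI1 and M6 by 2.20 (SE 0.49, edgeR adjusted p = 0.0276) on the log2 scale.

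Of the propeptide cleavage and crosslinking genes, 8 of 10 tested genes had a log2 fold change above 0, with a median of 1.64. Lox, the enzyme that starts crosslinking, was at 27.1, 22.8, 36.5 CPM in M1 to M3, 74.1, 7.36, 1.69 CPM in M4 to M6 and 2.41, 1.27, 0.544 CPM in NI1 to NI3. M1 to M5 stood above all islets and M6 did not. Its log2 fold change was 4.31 (SE 1.11, edgeR adjusted p = 0.148), and 5.21 (SE 0.98, edgeR adjusted p = 0.0168) without NI1 and M6. Loxl1 had a log2 fold change of 3.05 (SE 0.86, edgeR adjusted p = 0.152), and the lowest were Tll1 (-0.95) and Bmp1 (-0.02), which cut the C-terminal propeptide. Lox, Loxl1 and the N-terminal propeptidase Adamts2 rose without NI1 and M6.

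Of the receptors, 7 of 9 tested genes had a log2 fold change above 0, with a median of 0.49. Itga11, a type I collagen integrin of fibroblasts, and Mrc2, which takes up collagen for breakdown, had the highest values, 4.00 and 3.21, and Ddr1 and Itgb1, receptors of epithelial and most other cells, the lowest, -0.45 and -0.14. Mrc2 alone rose without NI1 and M6. All 9 tested breakdown genes and inhibitors were above 0, with a median of 1.89. Timp1 (3.93) and Mmp2 (3.44) were highest and Timp3 (0.07) and Timp2 (0.31) lowest, and Mmp2, Mmp13, Mmp14 and Ctsk rose without NI1 and M6. Of the basement membrane genes that are no collagens, 12 of 16 tested genes had a log2 fold change above 0, with a median of 0.43. Lama1 (4.84, under 8 CPM everywhere) and Pxdn, which crosslinks type IV collagen (1.81), were highest, and Lama3, a laminin chain, was among those below 0 (-1.01). Lamb1 and Pxdn rose without NI1 and M6.

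Markers of the cells that can make collagen were read beside these results, and their part in them was not tested. All 12 fibroblast markers that are no collagens had a log2 fold change above 0 (median 1.45), where 52.5% of all genes did. None passed with all 9 libraries. Without NI1 and M6, the fit with 17 collagens called, Mfap5, Pi16, Mfap4 and Postn rose, where 5.75% of all genes did. Without M6 alone Mfap5, Mfap4 and Postn did, where 0.522% of all genes did. Their summed level was 39.3 to 546 CPM in tumors and 67.4 to 124 CPM in islets, highest in M4 and, among tumors, lowest in M6, as for Col1a1. Of the defining markers Dcn, Lum and Pdgfra none was at 0 in any library, and Dcn was at 17.9, 45.5, 60.8 CPM in M1 to M3, 88.2, 35.9, 5.50 CPM in M4 to M6 and 23.1, 20.7, 57.1 CPM in NI1 to NI3, with NI3 among the high libraries. All 12 pericyte and smooth muscle markers were above 0 (median 0.92, 599 to 1629.8 CPM in tumors and 531 to 641 CPM in islets), as were all 8 macrophage markers (median 1.37, 292 to 804 CPM in tumors and 119 to 282 CPM in islets). Endothelial markers were above 0 for 5 of 12 (median -0.09, and 0.08 with total counts), at 508 to 1596 CPM in tumors and 1333 to 1435 CPM in islets. Acinar markers, digestive enzymes of the exocrine pancreas, were below 0 for all 12 (median -5.62), at 1.16 to 267 CPM in tumors and 406 to 7501 CPM in islets, and NI3 held by far the most. Beta cell markers had a median of -0.58, islet hormones of -1.33, ductal markers of 0.11 and the 3 tested Schwann markers of 0.25. None of the 14 lists held a gene past the threshold with all libraries. Without NI1 and M6, the pericyte markers Pdgfrb and Mcam and the macrophage markers Adgre1, Cd68, Mrc1 and Cd163 rose. In that fit 11 of 12 acinar markers and the hormone gene Gcg fell, where 3.59% of all genes did. No endothelial, beta cell, ductal or Schwann marker passed.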

How the data were processed

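RNA from 6 tumors and 3 normal islet samples was sequenced as 75-base single-end reads. The study trimmed reads with Trimmomatic 0.38 and quantified them with salmon 1.4.0 against mm10. The deposited values are whole-number estimated counts per Ensembl gene, although the table is named as TPM, and in this deposited table the authors applied no scaling between libraries. How transcripts were summed to genes, the annotation release and any use of strand are not given in the sources used here. Of 54347 IDs, 54094 were matched to GENCODE vM21, and the 253 unmatched ones held 0.0121% of counts.

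A gene was tested where 3 or more libraries reached 1 CPM (15532 genes). The test was run with edgeR 4.0.16 (TMM scaling, glmQLFit and glmQLFTest, R 4.3.3), two-sided, with Benjamini-Hochberg adjustment over all of them and a threshold of 0.05. A standard error is the log2 fold change divided by the square root of F. Tumors against islets pooled the 6 tumors into 1 group, and functional against non-functional tumors was a contrast in a fit of all 3 groups. Fits that leave out libraries kept the same genes. DESeq2 1.42.0, limma 3.58.1, other scalings and filters, leaving out single libraries and a replicate block were alternatives, and the scripts were tested on simulated data. Ratios of chains were compared by exact permutation over samples, with 0.5 added to each count as an alternative. Depth was 36468280 to 63637175 counts per library, which sets the counting error of a level, and the limit of 3 counts covers counting error only. The standard errors of fold changes also hold the spread between samples.

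The members, classes, partner lists and marker lists were chosen with earlier results of these data known. Genes named were the 3 with the highest mean CPM in each class, any past the threshold and the highest and lowest log2 fold change, and for partner lists the 2 highest, the 2 lowest and those past the threshold. A gene that this rule named is not reported here. No column was left unused.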

Additional observations from a re-analysis of the deposited data

Results flagged for a closer look

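The log2 ratio of Col4a1 to Col4a2 in M2 stood apart from the other 5 tumors. Its gap to the nearest tumor was 0.716 of the range over the 6 tumors, above the critical value of 0.625 for 6 samples. The ratio was 1.80 in M2 and 1.47 to 1.55 in the other tumors. Of the 31 measures checked this was the 1 that stood apart, and chance gives about 1 in 20, or 1.55 of 31.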

How the results depend on the processing

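The number of collagens called higher in tumors than in islets depended on the setting. It was 0 in the main result, 1 with no filter on low counts (where 0.019% of all genes were called higher), 6 with the replicate block (0.0773%), 17 with DESeq2, 19 at an unadjusted p under 0.05 and 17 without both NI1 and M6. Leaving out 1 library at a time gave 0 to 11 calls, with 11 without M6 and 8 without NI1. No collagen was called lower under these settings. The number with a log2 fold change above 0 was 25 to 29 of 32 when 1 library was left out. None of the 18 collagens named by rule changed direction in the 19 or 20 alternatives in which it had a value. Of those named after their values were seen, Col27a1, Col4a3 and Col4a4 did without NI1 and Col11a2 did without M6. Col9a2 did so with the replicate block, from 0.34 to -0.56. With a minimum of 5 CPM the number above 0 was not recomputed, since fewer members pass. The replicate numbers do not pair the samples (correlations of deviations of -0.05 for M1 with NI1, 0.03 for M2 with NI2 and -0.16 for M3 with NI3). M4, M5 and M6 each hold a replicate number of their own. The block fit therefore compared only M1 to M3 with NI1 to NI3, and M4 to M6 carried no weight in it. The block moved the count from 0 to 6 for samples that share only a number. The cause of these changes was not tested.

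For functional against non-functional tumors, an unadjusted p under 0.05 gave 1 collagen higher and 1 lower. The number above 0 was 17, 26 with total counts and 7 to 24 when 1 library was left out, with 10 without M3, 10 without M5 and 7 without M6. No paired analysis was possible because functional and non-functional tumors share no replicate numbers, and none was made for the ratios and sums. The ratio of summed levels was 2.37 to 3.55 when 1 library was left out. The log2 difference in Col6a1/Col6a2 reversed from -0.01 to 0.03 without M1, 0.00216 without M6 and 0.11 without NI2, in a range of -0.0839 to 0.112. The other 5 ratios kept their direction. Depth limits only members near 3 counts, such as Col10a1 and Col11a1 in islets.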
